A study of Ictidomys tridecemlineatus with 15 samples.

Results

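A set of 100 gene rows stood out in the cones of the developing 13LGS retina, out of 34181 rows in the deposited matrix. The rows were chosen by their measured values. Unique molecular identifiers (UMIs, 1 per captured mRNA molecule) were summed over all cells of each annotated type and scaled to a total of 1000000 UMIs per type (CPM). The score was log2 of (CPM in cones + 10) over (highest CPM in any other type + 10), and the 100 highest scores were kept among the 3290 rows with at least 50 CPM in cones. Gene names were not paired with matrix rows, so rows are given by their number, counted from 1, with no function and no sequence. The cone label could not be checked against named markers for the same reason.

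Whole retinas of captive 13-lined ground squirrels (13LGS), whose photoreceptors are mostly cones, were profiled as single cells at embryonic days 18, 21, 24 and 26 (E18 to E26) and postnatal days 4, 8, 12, 17 and 21 (P4 to P21), with birth at embryonic day 27. The 14 libraries used were 1 each at E18, P4, P17 and P21 and 2 each, named a and b, at E21, E24, E26, P8 and P12, with 46474 cells in all. The 12 annotated types were early-stage and late-stage retinal progenitor cells (RPCs), early-stage and late-stage neurogenic progenitors, photoreceptor precursors, cones, rods, amacrine cells, bipolar cells, horizontal cells, retinal ganglion cells and Müller glia. Age and library were inseparable at E18, P4, P17 and P21, which had 1 library each, and the number of animals behind each library is not given in the sources used here.

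Cones are the photoreceptors of daylight and colour vision. They arise from neurogenic progenitors, pass through a photoreceptor precursor state after leaving the cell cycle, and only later build an outer segment and the proteins that turn light into an electrical signal. Neurogenic progenitors are the dividing cells about to give rise to neurons, precursors among them.

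Libraries held 1369 to 5522 cells and 5068787 to 49415813 UMIs. The median number of UMIs per cell was 5230 to 11868 in embryonic libraries and 1548 to 4175 in postnatal ones, so depth per cell moved with stage. Cones were annotated only after birth, with 9 cells at P4, 82 in P8a, none in P8b, 570 in P12a, 384 in P12b, 405 at P17 and 1537 at P21. Of 46210 distinct barcodes, 263 occurred in more than 1 library.

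Scores ran from 0.54 to 4.07 with a median of 1.03. Only 16 rows scored at least 2 and 6 scored at least 3, so most of the set was also measured in another type at a sizeable fraction of its cone level. Row 4062 had the highest score, with 1088 CPM in cones against 55.5 CPM in rods, the next type. Row 583 followed, with 451 CPM in cones and 18.5 CPM in rods. Row 4503 had 969 CPM in cones and 59.7 CPM in precursors. The other 7 of the 10 highest were rows 3428, 29759, 25674, 21018, 33564, 32231 and 27956, with scores of 3.78 to 2.41. At the limit, the last rows inside were 11628 (0.57), 27177 (0.55) and 11631 (0.54), and the first outside were 4239 (0.53), 7266 (0.53) and 30858 (0.53), so the limit of 100 falls on no gap.

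The rod, the other photoreceptor, was the next highest type for 52 of the 100 rows, and the precursor for 19. Amacrine cells were next for 8 rows, bipolar cells for 7 and retinal ganglion cells for 5. Rods were few, with 324308 UMIs in total against 11301214 in cones, so that 1 UMI in rods was worth 3.08 CPM. With rods left out of the other types, an alternative added after the data were seen, 41 of the 100 rows were kept.

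The level of the set was uneven. Row 3428 alone held 19.6% of all UMIs of the set in cones, at 8735 CPM, and the 10 rows of highest level held 58.7%. Rows 21018 and 29759 came next, at 4517 and 2499 CPM. The library P21, which supplied 1537 of the cones, weighed most on the choice. Without it, 68 of the 100 rows were chosen again, against 87 to 99 without any other library that held cones.

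Whether the pattern held in a library that had no part in the choice was examined by choosing 100 rows without that library and reading them in it, among rows with at least 50 CPM in its cones. Cones were the highest type for 54 of 75 such rows in P12a, against 10.4% of all rows. They were highest for 59 of 70 in P12b (11.9% of all rows) and for 70 of 81 at P17 (17.5%). At P21 they were highest for 64 of 80, against 20.8%. In each of the 4 libraries the share was well above that of all rows.

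In cones themselves, the 100 rows together took a higher share of UMIs at the later ages. They made up 1.45% of cone UMIs in P8a (95% Wilson interval 1.40 to 1.50), 2.29% in P12a, 2.16% in P12b, 3.78% at P17 and 7.96% at P21. The 2 libraries of P12 lay close together and the libraries of the later ages lay above them. Without row 3428, the mean over the 5 libraries was 2.97% in place of 3.53% ± 2.62 (SD, n = 5). The cone sums had been used to choose the rows, so these values are a description and were not tested.

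**Figure D1:**
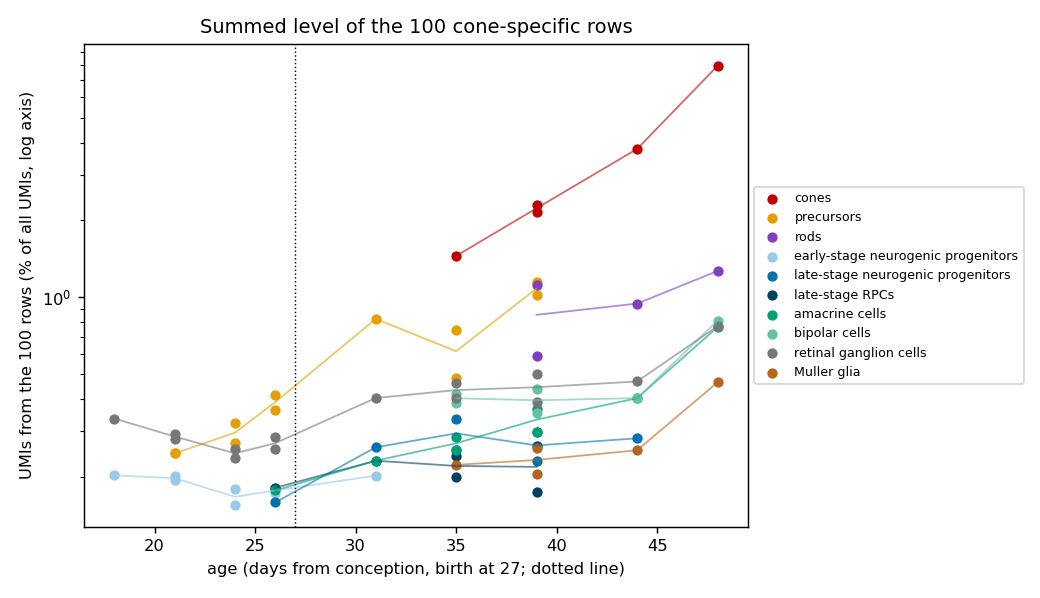
Percent of all UMIs that came from the 100 rows (log axis) against age in days, with birth at 27, for 10 annotated types. Each point is 1 library with at least 10 cells of the type and lines join the means of each age. Cones go from 1.45% to 7.96%, precursors reach 1.14%, and the neurogenic progenitors stay at or below 0.335%.

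Rows differed in how they moved with age in cones. Row 3428 stood at 217 CPM in P8a, 1384 CPM in P12a, 806 CPM in P12b, 3560 CPM at P17 and 21744 CPM at P21. Row 21018 was high from the start, at 1696, 2081, 3331, 6287 and 6345 CPM in the same libraries. Row 25674 moved least of the 10 rows of highest score, at 186, 393, 368, 386 and 665 CPM. The median ratio of P21 to the mean of P12 was 1.97 over the 100 rows and 0.928 over the 3301 rows compared, and 49 of the 100 were at least 2 times higher at P21, against 9.06% of all rows. The ratio was highest for rows 26671 (33.7), 2612 (32.4) and 33880 (20.6). It was lowest for rows 18153 (0.0933), 13745 (0.129) and 23795 (0.301), and 23 of the 100 rows were lower at P21 than at P12. Row 18153 had 229 to 348 CPM in cones from P8 to P17 and 28.9 CPM at P21. These ratios rest on 1 library at P21. That library weighed most on the choice of rows, which favoured rows high in its cones. The ratios, and their comparison with all rows, are therefore a description and were not tested.

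**Figure D2:**
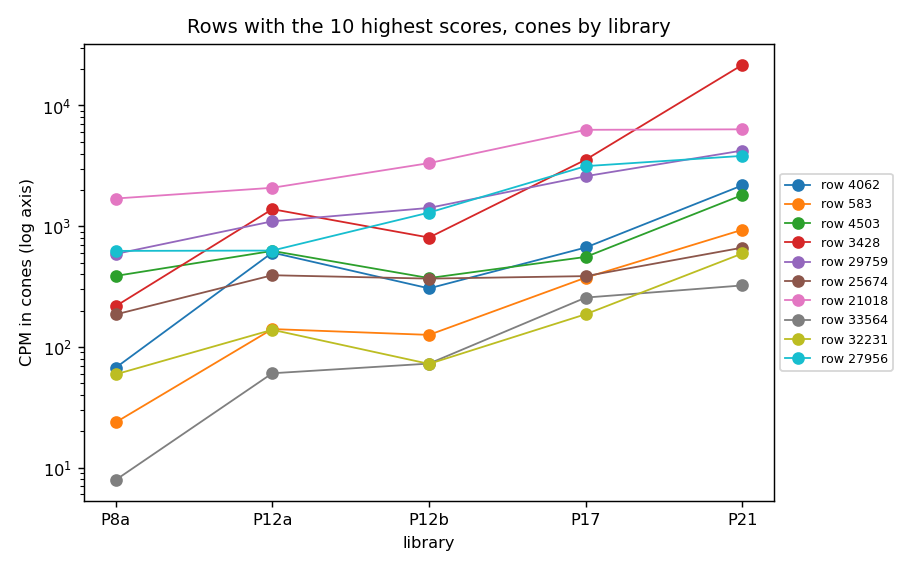
CPM in cones (log axis) in the 5 libraries with at least 10 cones, for the 10 rows of highest score. Row 3428 goes from 217 to 21744 CPM, whereas row 25674 stays between 186 and 665 CPM.

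Photoreceptor precursors carried the same rows at a lower level, which the choice of rows required of their pooled level. After birth the median row stood at 27.4% of its pooled cone level, 81 of 100 rows stood at 10% or more and 11 at 50% or more. The precursors came from P4 to P12 and the cones from P4 to P21, 1537 of them from P21. Age is thus mixed with type in these percentages. Rows 25351 (82.1%), 4042 (70.8%) and 23418 (68.1%) came closest to the cone level. Rows 3428 (0.778%), 29077 (1.12%) and 20684 (2.10%) were lowest, and all 3 were among the rows that were more than 10 times higher in cones at P21 than at P12. Row 3428 was at 291 CPM in precursors of P12a and 217 CPM in P12b, much nearer the cone levels of those libraries given above. Across the 100 rows, the profile of precursors and that of cones of the same library had a Pearson r of 0.89 in P8a, 0.88 in P12a and 0.96 in P12b, while late-stage neurogenic progenitors had 0.54, 0.52 and 0.38. Bipolar cells had 0.58, 0.59 and 0.51, and retinal ganglion cells 0.37, 0.37 and 0.26. The progenitor values thus lay within the range of types that are not photoreceptors. The cells of a library share its depth and free RNA, and these are descriptions over rows.

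**Figure D3:**
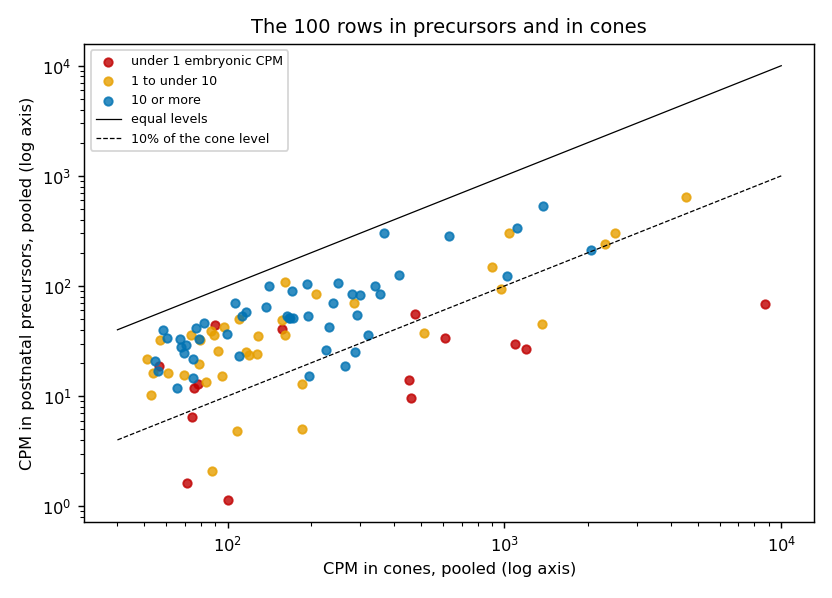
Pooled CPM of each of the 100 rows in postnatal precursors against cones (both axes log), coloured by the level of the row in all embryonic cells. The solid line marks equal levels and the dashed line 10% of the cone level. Of the 100 rows, 81 lie on or above the dashed line. The cones include P17 and P21, whereas the precursors come from P4 to P12.

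The share of precursor UMIs from the set was higher after birth in every library. It was 0.246% in E21a and in E21b, 0.270% and 0.323% at E24, 0.415% and 0.365% at E26, then 0.823% at P4, 0.748% in P8a, 0.483% in P8b, 1.02% in P12a and 1.14% in P12b. The lowest postnatal library, P8b, lay above the highest embryonic one. P8b differed from P8a in holding no cones and 669 precursors among its 1369 cells.

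The stage difference was tested in precursors with edgeR's quasi-likelihood test on UMIs summed per library (6 embryonic and 5 postnatal libraries). The choice of rows had used the pooled precursor level but not its split by stage. Of the 100 rows, 82 passed the filter on low counts, 48 rose after birth and 1 fell at a Benjamini-Hochberg adjusted p under 0.05. Over all 8571 rows tested, 13.4% were called higher and 11.3% lower. The filter favours rows that are high in 1 stage. Without it all 100 rows were tested and 67 were called higher, against 7.89% of all rows. Leaving out each library in turn gave 39 to 55 rows called higher and 1 or 2 called lower, except that 6 were called lower, and 45 higher, without P12b. Labels do not state whether libraries of 1 age came from separate animals, so p-values measure the spread between these libraries.

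The 2 rows with the largest rise in precursors were nearly absent before birth. Row 11047 was at 0 CPM in 4 of 6 embryonic libraries, at 5.86 CPM in E21b and at 1.05 CPM in E26b, and after birth it was at 30.5, 85.0, 47.4, 110 and 149 CPM in P4, P8a, P8b, P12a and P12b. Row 25674 was at 0 CPM in 5 embryonic libraries and at 2.10 CPM in E26b, and at 48.8, 58.9, 18.2, 93.3 and 159 CPM after birth. The groups did not overlap for either row, which was a condition for naming them. Each rests on 2 embryonic UMIs, so the fitted log2 changes of 6.82 ± 0.68 (SE; edgeR adjusted p = 3.2e-06) and 6.68 ± 0.80 (edgeR adjusted p = 1.6e-05) depend on the prior count. The ratio of pooled levels was 131 (95% counting interval 36.1 to 1085) for row 11047 and 103 (28.4 to 856) for row 25674.

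Within the postnatal precursors, from P4 to P12, the filter kept 92 of the 100 rows. A trend with age was called for 3 of these, all upward, against 0.263% of all rows tested higher and 0.0438% lower. Row 2795 was at 0 CPM at P4, 3.40 in P8a, 4.08 in P8b, 32.9 in P12a and 45.4 in P12b, a slope of 0.86 ± 0.12 log2 per day (edgeR adjusted p = 0.021). Row 21822 was at 0, 20.4, 3.77, 121 and 101 CPM in the same libraries, a slope of 0.89 ± 0.13 (edgeR adjusted p = 0.021). Only 5 libraries entered this fit. Without P12a, without P12b or without cells of high UMI count no row of the set was called, and without P4 or P8b 9 and 7 were.

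Neurogenic progenitors held far less of the set than precursors. Their late-stage class gave 0.260% of UMIs at P4, 0.255% in P8a, 0.335% in P8b, 0.299% in P12a, 0.229% in P12b and 0.282% at P17, close to the 0.174% to 0.262% of late-stage RPCs after birth. The early-stage class gave 0.155% to 0.202% before birth. In the 5 libraries from P4 to P12b, 63 of the 100 rows were higher in precursors than in late-stage neurogenic progenitors in every library and none was lower in every library, against 12.8% and 4.63% of all rows. Between late-stage neurogenic progenitors and late-stage RPCs, 14 rows were higher in all 5 libraries and 8 lower. Among the 56 rows of the set with at least 50 UMIs in these cells, 10 were higher and 8 lower in all 5, against 8.89% and 9.38% of all 9330 rows with as many UMIs.

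Across birth, 19 of the 100 rows rose in neurogenic progenitors and 3 fell by edgeR's test over 7 embryonic and 6 postnatal libraries, against 16.5% and 18.0% of all 9349 rows tested. Early-stage cells made up nearly all of the embryonic class and late-stage cells of the postnatal class, so age and class cannot be told apart. Only 52 of the 100 rows passed the filter, so the 19 and the 3 are to be read over those 52, and the rises were then more frequent than over all rows tested and the falls less so. Without the filter 99 rows were tested and 36 were called higher, against 6.96% of all 25821 rows. That share is again lowered by rows of low count and is not like for like. The largest rises were in rows 21018 and 27956. Row 21018 was at 0 to 6.88 CPM in the 7 embryonic libraries and at 70.8 to 208 CPM in the 6 postnatal ones (log2 change 5.69 ± 0.56, edgeR adjusted p = 6.1e-07). Row 27956 was at 0 to 6.41 CPM before birth and at 19.8 to 104 CPM after it (log2 change 4.66 ± 0.61, edgeR adjusted p = 1.5e-05). No library of one stage overlapped the other for these rows, which was a condition for naming them.

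Both rows were also found after birth in types that are not photoreceptors. Row 21018 had a median of 119 CPM over 7 libraries in amacrine cells, 207 over 6 in bipolar cells, 98.0 over 5 in Müller glia and 72.6 over 5 in late-stage RPCs, beside 91.2 in late-stage neurogenic progenitors and 3331 in cones. In retinal ganglion cells its median over 7 libraries was 41.9 CPM. The median of row 21018 in late-stage neurogenic progenitors therefore lay within the range of the other non-photoreceptor types listed. Row 27956 was at 25.1 to 210 CPM in amacrine cells and had a median of 11.9 CPM in retinal ganglion cells. In droplet libraries free RNA gives UMIs in cells that do not express a gene, and its part in these values was not tested.

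**Figure D4:**
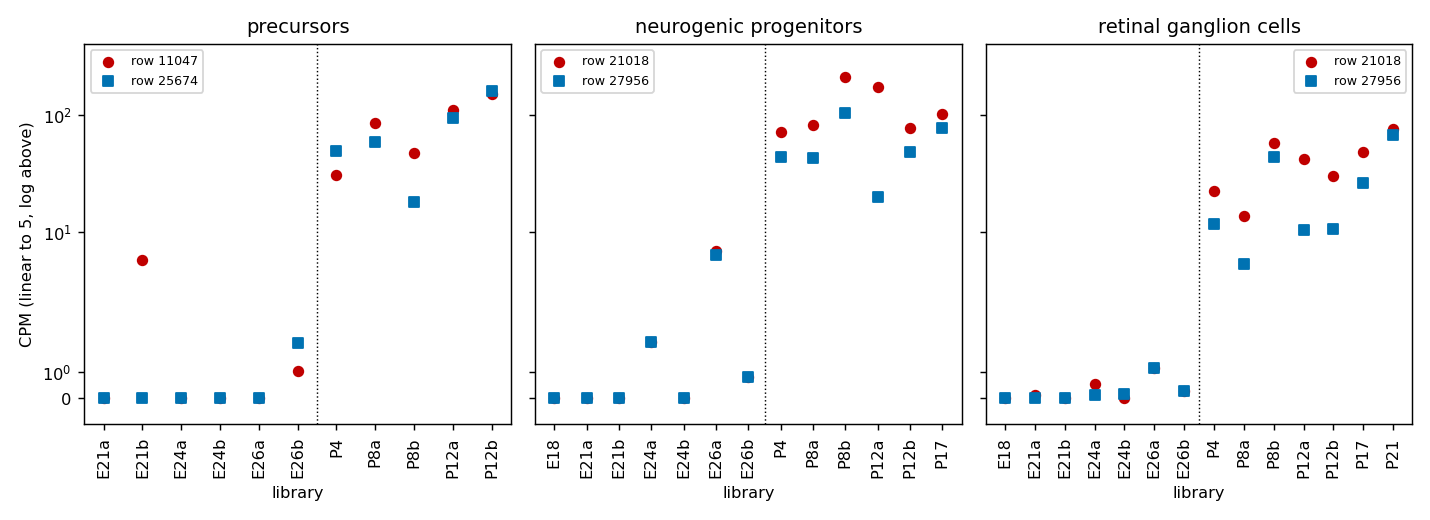
CPM by library (linear to 5, log above) of the 2 rows with the largest rise after birth in precursors, in neurogenic progenitors and in retinal ganglion cells. Each point is 1 library and the dotted line separates embryonic from postnatal libraries. In all 3 panels the postnatal points lie above every embryonic point, which was a condition for naming these rows.

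With age after birth, few rows were called in late-stage neurogenic progenitors. The filter kept only 46 of the 100 rows. Over 6 libraries 1 of these 46 was called higher and 1 lower, against 1.18% and 1.33% of 6773 rows. Row 4865 was at 4.76, 16.6, 23.7, 16.6, 31.1 and 82.9 CPM from P4 to P17, a slope of 0.27 ± 0.06 log2 per day (edgeR adjusted p = 0.018). Row 25351 was at 106, 58.2, 107, 29.9, 12.1 and 29.6 CPM, a slope of -0.22 ± 0.06 (edgeR adjusted p = 0.031). Without P4, P8a or P12b neither was called, nor was row 4865 without P17 or row 25351 without P12a.

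The change across birth was set directly against itself in the 2 classes, in the 11 libraries that had both, with the library as a block. The filter kept 86 of the 100 rows. The log2 change was more positive in precursors for 19 and in neurogenic progenitors for 7, against 8.59% and 6.44% of 9928 rows. By DESeq2 the counts were 9 and 6, and without cells of high UMI count 10 and 7. Without P12b the rows more positive in precursors numbered 9. Of the 19, 14 were also called higher after birth in precursors. A more positive change need not be a rise in precursors. Row 13745 (3.18 ± 0.52) fell in neurogenic progenitors of these libraries, from 14.7 to 40.2 CPM before birth to 0 to 8.65 CPM after it. Row 4503 went from 0 to 4.20 CPM before birth to 51.5 to 203 CPM after it in precursors and only from 0 to 1.80 to 2.83 to 11.6 CPM in neurogenic progenitors (difference of log2 changes 3.80 ± 0.89, edgeR adjusted p = 0.0031), a call lost without cells of high UMI count. Row 11047, described above in precursors, was at 1.42 to 23.1 CPM in neurogenic progenitors after birth (4.15 ± 1.12, edgeR adjusted p = 0.0094), a call lost without E26a, without cells of high UMI count and by DESeq2. Row 24417 moved the other way. It was at 41.0 to 215 CPM in embryonic and 232 to 631 CPM in postnatal precursors, and at 4.81 to 21.3 CPM and 142 to 264 CPM in neurogenic progenitors (-2.15 ± 0.22, edgeR adjusted p = 1.3e-08). Row 30620 also rose more in neurogenic progenitors, from 10.8 to 18.3 CPM to 64.0 to 89.1 CPM (-1.77 ± 0.26, edgeR adjusted p = 8.1e-06).

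Rods, of which 14 to 89 cells were available per library, gave 1.12% of UMIs from the set in P12a, 0.587% in P12b, 0.944% at P17 and 1.26% at P21. They lay below cones of the same library in all 4, at 15.9% to 49.0% of the cone share. The rows had been chosen to be higher in cones than in rods over the pooled libraries, so this order is a description.

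Among the remaining neurons, amacrine cells gave 0.231% at P4, 0.254% in P8a, 0.285% in P8b, 0.367% in P12a, 0.299% in P12b, 0.404% at P17 and 0.764% at P21. The filter kept 91 of the 100 rows. A trend with postnatal age was called upward for 17 of them and downward for 1, against 5.48% and 3.96% of 14925 rows. It rested on P21, the library in which cones were 30.4% of cells. Without P21, 2 rows were called. Row 2358 was at 10.2, 27.7, 23.0, 321, 188, 764 and 1935 CPM from P4 to P21 (0.45 ± 0.04 log2 per day, edgeR adjusted p = 3.7e-04) and stayed called without any 1 library. It was also 1 of the 8 rows for which amacrine cells were the next type to cones, at 640 CPM pooled. Row 3428 was at 1.39, 2.80, 4.31, 52.6, 17.5, 35.8 and 464 CPM (0.45 ± 0.05, edgeR adjusted p = 8.8e-04) and lost the call without P21. Row 7373 fell, from 39.0 CPM at P4 to 17.2 CPM at P21 (-0.09 ± 0.02, edgeR adjusted p = 0.025), a call lost when P4, P8a, P12a, P17 or P21 was left out.

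Retinal ganglion cells gave 0.235% to 0.336% in the 7 embryonic libraries and 0.391% to 0.770% in the 7 postnatal ones. Of the 100 rows 33 rose and 11 fell across birth, against 26.5% and 26.9% of 13933 rows. The filter kept 77 of the 100 rows, and over those 77 the rises were more frequent than over all rows tested and the falls less frequent. Row 21018 was at 0 to 1.15 CPM before birth and at 13.8 to 75.2 CPM after it (log2 change 6.85 ± 0.56, edgeR adjusted p = 1.4e-07), and row 27956 at 0 to 1.15 and 5.32 to 67.5 CPM (6.29 ± 0.70, edgeR adjusted p = 2.3e-06). Among called rows whose stages did not overlap, the largest falls were in rows 20180 and 12378. Row 20180 went from 10.9 to 32.5 CPM down to 0 to 6.24 CPM (-3.36 ± 0.44, edgeR adjusted p = 1.0e-05). Row 12378 went from 23.6 to 32.8 CPM down to 2.13 to 20.5 CPM (-1.53 ± 0.27, edgeR adjusted p = 1.4e-04).

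The rows fell into 3 groups by their pooled level in embryonic cells, a division made after the data were seen. The 15 rows under 1 CPM held 979 of 192915932 embryonic UMIs, rods were the next type for 13 of them, and their median ratio of P21 to P12 in cones was 5.44. Of the others, 37 rows had 1 to under 10 CPM and 48 had 10 CPM or more, with median ratios of 1.86 and 1.90. In cones the 15 rows summed to 1071 CPM in P8a, 3605 in P12a, 2760 in P12b, 7396 at P17 and 31373 at P21. In precursors they summed to 17.6 to 19.6 CPM at E21, 91.3 to 108 CPM at E26, 144 to 356 CPM at P4 and P8, and 828 and 1044 CPM at P12.

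Elsewhere the 15 rows were low but not at 0 after birth. As a percentage of the sum in cones of the same library, they stood at 23.0% to 37.8% in precursors, 9.0% to 30.7% in rods, 0.960% to 3.69% in late-stage neurogenic progenitors, 1.08% to 3.04% in amacrine cells, 2.71% to 5.90% in bipolar cells, 0.909% to 2.62% in Müller glia and 0.445% to 1.30% in retinal ganglion cells. At P21, the library richest in cones, they summed to 610 CPM in amacrine cells, 1276 CPM in bipolar cells, 807 CPM in Müller glia and 257 CPM in retinal ganglion cells. Across these 15 rows the profile in cones at P21 had r = 0.93 with amacrine cells, 0.96 with Müller glia, 0.93 with retinal ganglion cells, 0.73 with bipolar cells and 0.61 with rods. P21 had both the highest share of cones and the highest level in these types. From P12b to P17 the share of cones went from 9.71% to 7.67% of cells. The sum of the 15 rows went from 51.8 to 80.0 CPM in amacrine cells and from 138 to 200.4 CPM in bipolar cells. In cones it also rose, as given above. In P12a, where cones were 13.4% of cells, the sum in amacrine cells was above that of P12b and of P17. In bipolar cells it lay between them. The part of free cone RNA or of mixed cells in these values was not tested.

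**Figure D5:**
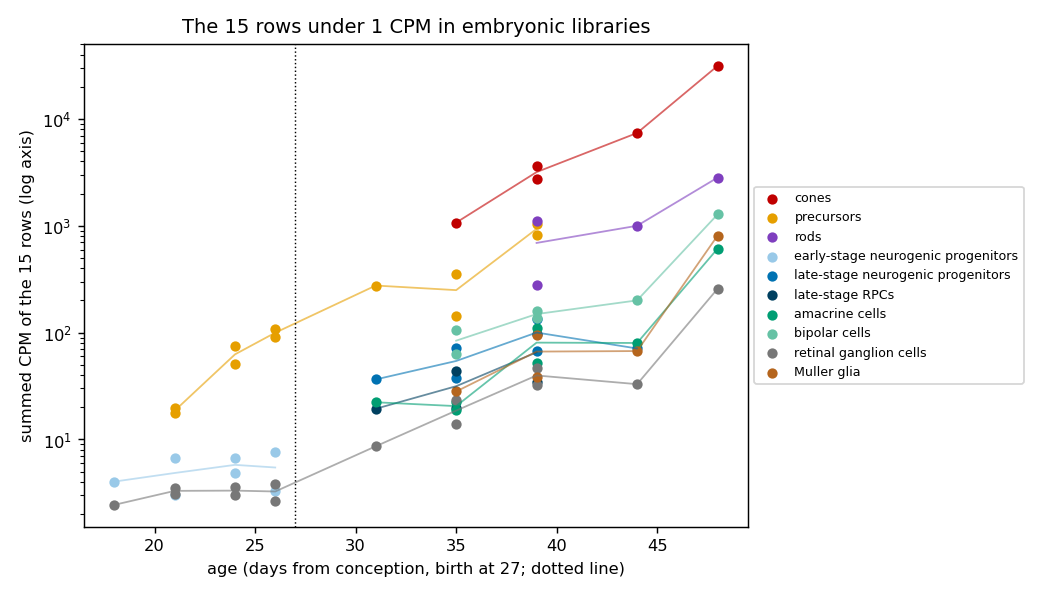
Summed CPM (log axis) of the 15 rows under 1 CPM in embryonic cells against age in days, with birth at 27, in 10 annotated types. Points are libraries with a sum above 0 and lines join the means of each age. Cones go from 1071 to 31373 CPM and precursors from 17.6 to 1044 CPM. The non-photoreceptor types lie below cones of the same library, which the choice of rows favoured. They are highest at P21, where bipolar cells reach 1276 CPM.

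Counting within single cells gave a like order of types when each cell was thinned to 1000 UMIs, which leaves out shallower cells (32 of 1537 cones at P21). The rows had been chosen in these same cells to be highest in cones, so the first place of cones is a description. The median cone held 16 UMIs of the set in P8a, 24 in P12a, 21 in P12b, 37 at P17 and 80 at P21. The median precursor held 8 at P4, 8 in P8a, 5 in P8b, 10 in P12a and 11 in P12b. Late-stage neurogenic progenitors held 2 or 3 after birth, and amacrine cells 2 or 3 up to P17 and 6 at P21. The 15 rows gave at least 1 UMI in 89.0% of unthinned and 61.0% of thinned cones in P8a, and in 5.10% and 2.26% of amacrine cells. In precursors of P8a the shares were 73.9% and 31.8%. At P21 the contrast was much smaller, with 100% of cones, 85.7% of unthinned and 50.3% of thinned amacrine cells, and 90.1% and 72.1% of bipolar cells. The share in amacrine and bipolar cells at P21 was thus above that in precursors of P8a.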

How the data were processed

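Per the study's methods and labels, 10x 3′ v3.1 libraries were processed by the authors with Cell Ranger 3.1.0 and Seurat 4.0.4, on the HiC_Itri_2 assembly. The authors deposited UMI counts per gene row and cell, not normalized, and a table with each cell's type. The sources used here do not state cell filters, doublet removal or depth equalization, and no doublets were removed. Libraries were told apart by the suffix of the cell names. The letters a and b carry no replicate number. P1 had 2 suffixes and 1 labelled sample, so its 6920 cells (13.0%) are not analysed here. Cell and matrix order were checked: 90.1% of 3000 held-out cells lay nearest their own type, against 5.53% after shuffling.

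Counts were summed per library and type with at least 10 cells (Python 3.11.15). Tests used edgeR 4.0.16 in R 4.3.3 (filterByExpr, TMM, quasi-likelihood, adjusted over all rows tested, threshold 0.05) and were tested on simulated data. Ages after birth were counted from embryonic day 27. Alternatives were DESeq2 1.42.0, other size factors, no filter, omission of 4585 cells (9.87%) above 2 times the median UMI of their library and type, and omission of each library. Intervals cover counting error only. Rows named were the 10 highest scores, 3 highest levels, rows at the limit, extremes of the precursor and P21 ratios, and up to 2 rises and falls per test. The rises and falls were the largest among called rows that met a further condition, so a larger called change can be unnamed. Across birth, embryonic and postnatal libraries had to not overlap, in the class comparison by their within-library difference. For trends, the sign had to hold with each library left out. Members and lists were chosen with earlier results of these data known.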

Additional observations from a re-analysis of the deposited data

Results flagged for a closer look

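In 15 groups of 4 to 10 libraries of 1 type and stage, the share of UMIs from the 100 rows was examined for a library far from the others, and 4 groups had one, in each case P21. Chance flags about 1 in 20 groups, and the 4 share 1 library. At P21 the share was 0.764% in amacrine cells, with the nearest of 7 libraries at 0.404%. It was 0.810% in bipolar cells, with the nearest of 6 at 0.440%. It was 0.465% in Müller glia, with the nearest of 5 at 0.259%, and 0.770% in retinal ganglion cells, with the nearest of 7 at 0.500%. P21 also held the largest share of cones among its cells, 30.4%, and the part of this in the values was not tested.

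The change across birth differed between precursors and neurogenic progenitors for 26 of the 86 rows of the set that passed the filter. This was by the test of the difference itself in edgeR, which called 1492 of all 9928 rows tested. The count was 15 by DESeq2 and 17 without cells of high UMI count.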

How the results depend on the processing

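The set kept 81 to 99 of its 100 rows under the planned changes of pseudocount, pooling and high-UMI cells, 68 to 99 with a library left out, and 41 without rods. With members chosen without P21, an alternative added after the data were seen, the mean share was 0.401% in embryonic precursors (0.311% as reported) and 0.399% in postnatal late-stage neurogenic progenitors (0.277%).

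Rows called in neurogenic progenitors numbered 40 in place of 22 without the filter. The difference between classes gave 15 rows by DESeq2 and 17 without high-UMI cells, in place of 26, and 20 to 26 with a library left out. The late-stage neurogenic trend gave 1 by DESeq2 and 1 without high-UMI cells, in place of 2, and 0 to 2 with a library left out. The precursor trend gave 10 without the filter, 7 by DESeq2 and 0 without high-UMI cells, in place of 3, and 0 to 9 with a library left out. The amacrine trend gave 2 to 21 with a library left out, in place of 18, with 2 without P21 and 11 without P4. The cause was not tested. Across birth, the total of rows called in precursors and in retinal ganglion cells stayed within 1.5 times under every alternative run, while rows called lower in precursors went from 1 to 6 without P12b and to 2 without E21b or without the filter. In the 261 refits that tested a named row, 240 kept the call, 21 lost it and 0 changed sign. Trend rows were named only if their sign held with each library left out. The other tests named rows only where the stages did not overlap. The lack of sign changes was thus largely set by the choice of named rows. No paired analysis was possible because the cell names do not carry the replicate numbers that the labels share between ages. The difference between classes, measured in the same libraries, had the library as a block. Rods, with 150 cells, limit what can be said of them, and P21, P17 and P4 had 1 library each.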
